A study of Mus musculus with 21 samples.

Results

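Imprinted genes were followed in the developing mouse testis from gestation day 11 to postnatal day 2. The members are 34 genes known in the mouse to be expressed from a single parental copy, 12 of them mainly from the maternal copy and 22 mainly from the paternal copy. They were found on the array by the gene symbol of each probe set, the group of short probes that measures a transcript. A total of 30 members have at least 1 probe set that the platform annotation lists under that gene alone, and 29 of them passed the filter on dim probe sets, of 14338 genes that passed in all. The 29 are 11 maternally and 18 paternally expressed genes. Rtl1, Dio3 and Zrsr1 have no such probe set. H19 has only a probe set shared with the microRNA gene Mir675. The Snrpn probe set of its own was too dim to keep, and other probe sets of this locus list Snurf and Snrpn together.

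Genomic imprinting marks a gene according to the parent it came from. The marks are DNA methylation at control regions, laid down in the germ line, kept in body cells and erased in the early germ cells of each new embryo, and in the male they are set again in the prospermatogonia of the fetal testis. Many paternally expressed genes are known to promote fetal growth and many maternally expressed genes to restrain it, and several of them are known to fall in many organs around birth. An array of this kind sums both parental copies, so no value here tells the alleles apart.

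Male wild-type mice of the outbred CD-1 stock gave whole testes at 6 stages, measured on 20 single-colour arrays. The stages are gestation days 11 (gd11, 5 arrays, each from a pool of 2), 12 (gd12, 3 arrays, each from a pool of 5), 14, 16 and 18 (gd14, gd16 and gd18, 3 arrays each, not pooled) and postnatal day 2 (pnd2, 3 arrays, not pooled). All testis samples are labelled male. The series' design text instead describes every sample as both testes of 1 animal, in triplicate. Array 21 is a common reference, RNA of 8 whole newborns at postnatal day 0.5, 4 male and 4 female. Replicate numbers run from 1 to 21 over the whole series, with pnd2 as 1 to 3, gd18 as 4 to 6, gd16 as 7 to 9, gd14 as 10 to 12, gd12 as 13 to 15 and gd11 as 16 to 20. Values are linear intensities scaled to a trimmed mean of 500 on every array, and array values are listed in replicate order. An error after an intensity is the SD over the arrays of a stage, and an error after a log2 difference is the standard error of the limma fit. A gene is called where its adjusted p over all 14338 genes is below 0.05. A stage mean below 71.6 is close to background, and log2 differences that involve such a mean depend on the pseudocount of 22.4 added to every intensity. In whole-organ RNA, fewer cells of a type and less RNA per cell cannot be told apart.

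RefSeq promoter windows of 250 bases before a transcription start (build GRCm38.p6) were on hand for 28 of the 34 members, in 45 windows. The bases shown belong to members that were lower at pnd2 than at gd11, and they range from CpG-rich to CpG-poor. Capitals mark each CpG, the dinucleotide at which imprinting methylation is placed. All are written 5′ to 3′ on the strand of the gene, and only bases outside the gene's own annotated span are shown. Grb10 (chr11:12037429-12037670, minus strand), Nnat (chr2:157559828-157560077, plus strand) and Asb4 (chr6:5383136-5383385, plus strand) are shown up to the first annotated start. Peg3 and Usp29 start back to back on opposite strands, and the 96 bases between their annotated spans (chr7:6730463-6730558, written on the plus strand, the strand of Usp29) serve both.
Grb10: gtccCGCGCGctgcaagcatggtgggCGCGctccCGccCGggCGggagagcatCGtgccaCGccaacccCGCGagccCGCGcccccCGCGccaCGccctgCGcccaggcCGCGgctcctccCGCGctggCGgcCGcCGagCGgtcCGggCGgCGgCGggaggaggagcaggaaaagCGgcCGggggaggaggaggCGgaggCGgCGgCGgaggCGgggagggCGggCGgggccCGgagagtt
Nnat: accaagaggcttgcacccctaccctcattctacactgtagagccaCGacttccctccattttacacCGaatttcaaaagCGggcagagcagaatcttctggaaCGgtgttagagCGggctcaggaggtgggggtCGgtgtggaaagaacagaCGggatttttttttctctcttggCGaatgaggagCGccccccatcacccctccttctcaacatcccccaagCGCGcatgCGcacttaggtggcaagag
Asb4: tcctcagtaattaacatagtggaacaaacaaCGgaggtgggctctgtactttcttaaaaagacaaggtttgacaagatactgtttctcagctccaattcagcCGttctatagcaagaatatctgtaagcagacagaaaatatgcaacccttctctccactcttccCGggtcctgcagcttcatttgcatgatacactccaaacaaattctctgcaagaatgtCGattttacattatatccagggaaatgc
Peg3-Usp29: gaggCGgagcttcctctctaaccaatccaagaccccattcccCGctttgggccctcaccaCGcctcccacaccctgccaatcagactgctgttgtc
The Grb10 stretch holds 40 CpG in 242 bases, the Nnat stretch 12 in 250, the Asb4 stretch 4 in 250 and the Peg3-Usp29 stretch 3 in 96. The median over the 45 member windows was 8 CpG, and 6 over all 32851 windows from RefSeq. The hexamer TGCCGC, the core of the site that the imprint-keeping zinc finger protein ZFP57 binds when methylated, was searched on both strands. It occurred in 5 of the 45 member windows, which belong to Meg3, Mest, Plagl1 and Zim1, and in 8.68% of all windows. Of the 5, 2 are Mest windows that overlap almost fully (chr6:30737800-30738049 and chr6:30737803-30738052). By gene, the hexamer occurred in 14.3% of the 28 members with a window, against 9.84% of all genes with a window. None of the 4 stretches shown holds it, which says only that these letters are absent from these bases.

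Among the 5 gd11 arrays, replicates 16 and 17 stood apart. The summed intensity of 13 neural marker genes was 85227 and 50107 on these arrays, against 6975, 4990 and 10310 on replicates 18 to 20. All 13 neural genes had their 2 highest gd11 values there. Of the 29 imprinted genes, 18 (62.1%) had their 2 lowest gd11 values on replicates 16 and 17, against 23.3% of all genes, while Mkrn3, Nap1l4, Ndn, Nnat and Peg12 had their 2 highest there. At gd12, replicate 13 had a summed intensity of 5801 for 10 adrenal marker genes, against 1551 and 1431 on the other two arrays. Its fetal Leydig sum was 4238 against 1130 and 1741, and its germ cell sum 9711 against 32926 and 28585. On gd12 replicates 13 and 14, 9 of 13 neural genes and 13 of the 29 imprinted genes (44.8%, against 31.3% of all genes) had their 2 highest gd12 values, so calls were also made without this pair. Values without these arrays are given where they matter.

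**Figure D1:**
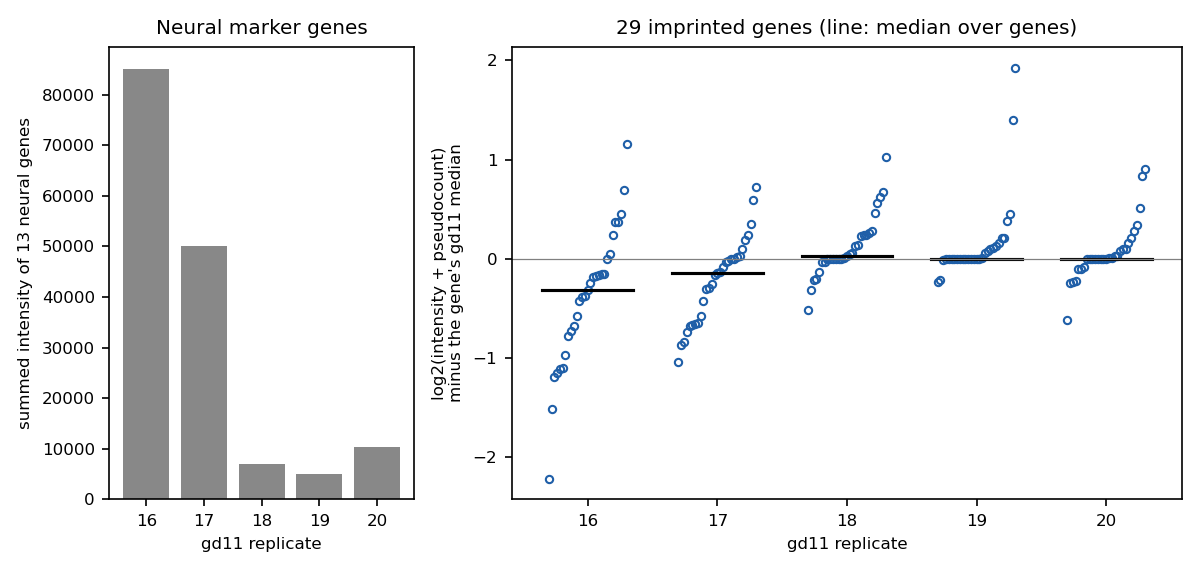
Left, summed linear intensity of 13 neural marker genes on each gd11 array, from 0. Right, each imprinted gene's log2(intensity + 22.4) on each gd11 array minus its own gd11 median, sorted within an array, with a line at the median over the 29 genes: the line sits at -0.31 for replicate 16 and -0.15 for replicate 17, and between 0.00 and 0.03 for the other three.

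From gd11 to pnd2, 17 of the 29 imprinted genes fell and 6 rose. Over all genes 48.6% were called in this comparison, 24.2% higher and 24.4% lower. The median log2 difference was -0.73 over the imprinted genes and -0.03 over all genes. Of the 18 paternally expressed genes 11 fell and 4 rose (median -0.79), and of the 11 maternally expressed genes 6 fell and 2 rose (median -0.38). The array ranges of gd11 and pnd2 did not overlap for 18 of the 29, 14 lower and 4 higher at pnd2, against 44.6% of all genes. Without gd11 replicates 16 and 17 the fit called 22, 17 lower and 5 higher. With arrays quantile normalized the counts were 16 lower and 6 higher, and with array medians set equal 15 lower and 6 higher. With the mean of a gene's probe sets, Meg3 (adjusted p = 0.86), Airn (0.197), Sgce (0.15) and Impact (0.148) lost their calls. In that setting Gnas turned to 0.35 and was not called either (adjusted p = 0.263).

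Over the 6 stages together, 23 of the 29 imprinted genes (79.3%) changed by the F-test, against 68.3% of all genes. These are 7 of the 11 maternally and 16 of the 18 paternally expressed genes. Of the 29, 19 were both called by the F-test and at least 2-fold apart between their highest and lowest stage means, a rule that 34.5% of all genes met. Of those 19, 10 were highest at gd11 (52.6%, against 23.5% of the genes in all that met the rule) and 12 were lowest at pnd2 (63.2% against 25.1%). The heat map of all arrays shows this as a block of high values at the left of most rows, with a smaller set of rows that are highest at gd16, gd18 or pnd2.

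**Figure D2:**
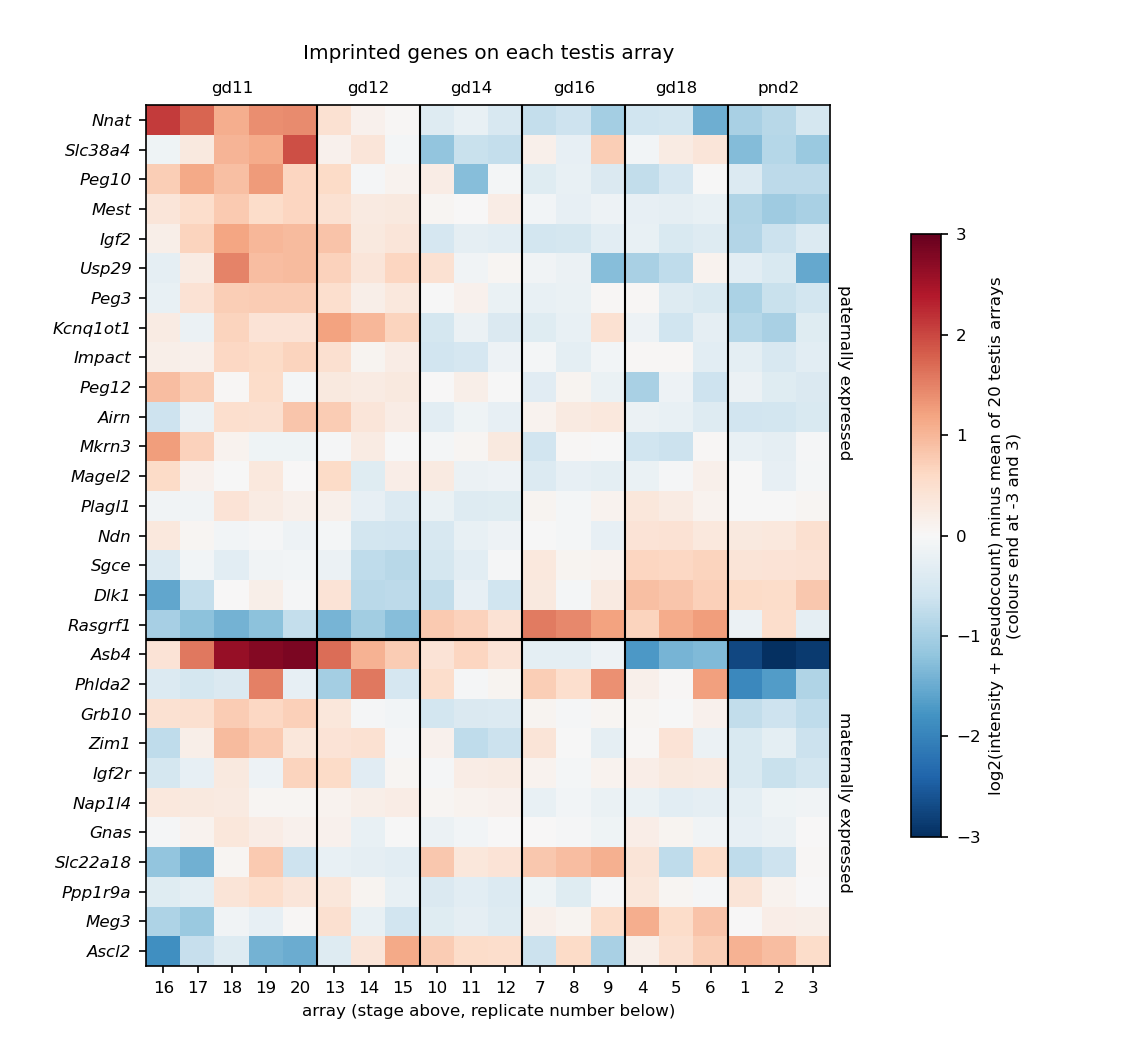
Each row is an imprinted gene and each column a testis array, grouped by stage; colour is log2(intensity + 22.4) minus the gene's mean over the 20 testis arrays, with the scale ending at 3 on either side of 0. The 18 paternally expressed genes are above the line and the 11 maternally expressed genes below, each ordered by the change from gd11 to pnd2; Asb4 spans the whole colour range.

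Other cell types' markers moved between the same stages. The summed intensity of 10 erythroid genes ran from 82298 to 89291 at gd11 and from 565 to 658 at pnd2. Of the 10 erythroid genes 8 fell, as did 9 of 13 neural genes, 6 of 9 mesonephros and duct genes, 5 of 8 endothelial genes and 6 of 12 skeletal and cardiac muscle genes. In the other direction 9 of 10 Sertoli cell genes, 6 of 6 fetal Leydig cell genes and 10 of 11 interstitial and smooth muscle genes rose, and the Sertoli sum went from 2026 to 3749 at gd11 to 69038 to 77340 at pnd2. Adrenal genes (3 higher and 3 lower of 10), germ cell genes (4 higher and 3 lower of 8), liver genes (2 higher of 5) and macrophage and leukocyte genes (2 higher of 8) gave fewer or mixed calls. The part of these cell types in the imprinted genes' changes was not tested.

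**Figure D3:**
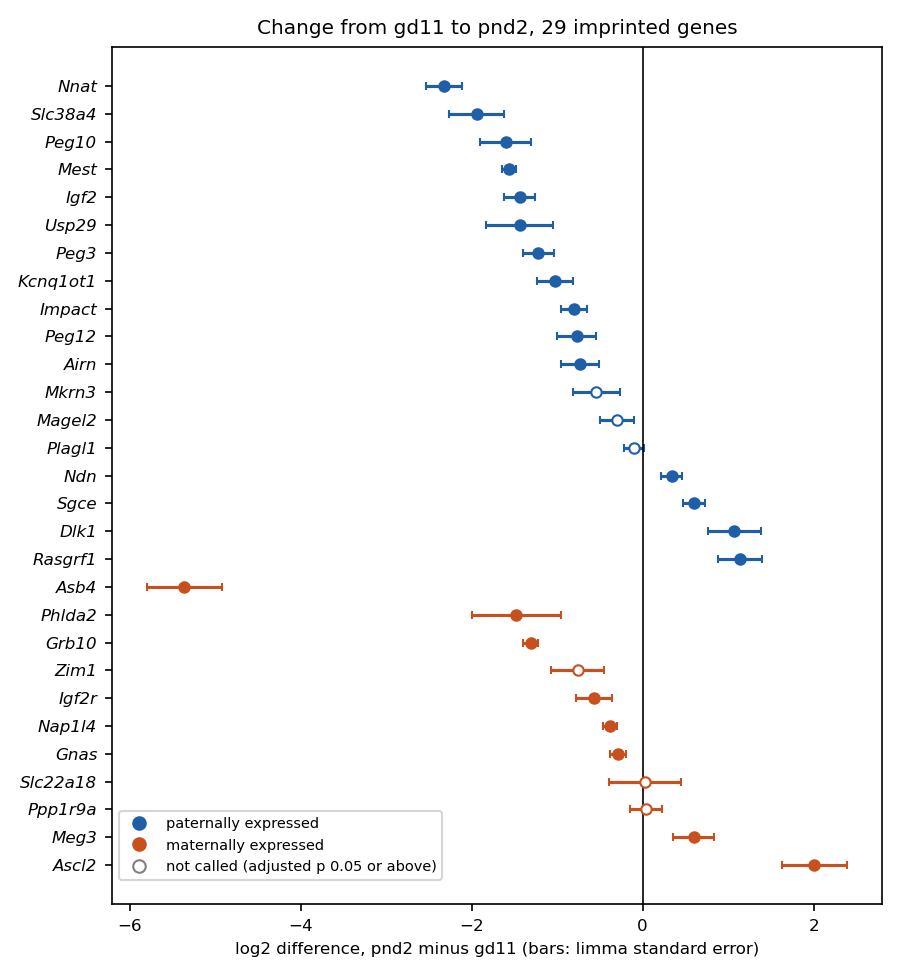
Log2 difference of pnd2 minus gd11 for each of the 29 imprinted genes, with bars for the limma standard error; blue marks paternally and orange maternally expressed genes, and open circles mark genes not called at an adjusted p below 0.05. Asb4 lies furthest to the left at -5.36 and Ascl2 furthest to the right at 2.01.

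Among the paternally expressed genes, Igf2, the main growth factor of the fetus, fell early. Its intensities at gd11 were 14711, 20649, 29955, 26317 and 25341, at gd12 23901, 15936 and 16727, at gd14 9265, 10816 and 10592 and at pnd2 7073, 8414 and 9772. Every pnd2 array was below every gd11 array, although gd11 replicate 16 was far below the other gd11 arrays. The difference of pnd2 and gd11 was -1.44 ± 0.18, adjusted p = 1.73e-06. The only adjacent step called was gd14 against gd12 (-0.86 ± 0.20, adjusted p = 0.0048), and from gd14 on the stage means stayed between 8420 and 10270. The step was not called without gd12 replicates 13 and 14 (-0.71, adjusted p = 0.125), when gd12 has 1 array left and is assumed to vary like the other stages, nor with the mean of both Igf2 probe sets (-0.55, adjusted p = 0.0956). Without gd11 replicates 16 and 17 the first step was called as well (gd12 against gd11 -0.55, adjusted p = 0.00674). Igf2 lies on chromosome 7 beside H19, whose only probe set, shared with Mir675, read 28438 ± 5362 at gd11, 15062 ± 775 at gd16 and 18588 ± 2943 at pnd2. That probe set is assigned to neither gene.

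Mest, which encodes an alpha/beta hydrolase fold protein of mesodermal tissue, had the smallest standard error of the large falls. Intensities were 18056, 20145, 24342, 20596 and 21797 at gd11, 11751, 11627 and 12038 at gd18 and 7446, 6657 and 7124 at pnd2. The 3 ranges do not overlap, and pnd2 is the lowest. The fall over the whole course was -1.56 ± 0.08, adjusted p = 2.04e-11, and the part from gd18 to pnd2 was -0.74 ± 0.09, adjusted p = 0.000168. The first step was at the edge of the threshold (gd12 against gd11 -0.23 ± 0.08, adjusted p = 0.0489) and was lost without gd12 replicate 14 (adjusted p = 0.158) or 15 (0.179), gd11 replicate 18 (0.102) and most other single arrays, and with quantile normalized arrays (-0.09, adjusted p = 0.45).

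Nnat, the gene of the small membrane protein neuronatin, fell from 18676, 14737, 9315, 11469 and 11569 at gd11 to 5966, 4765 and 4488 at gd12. Every gd12 array was below every gd11 array. This first step, -1.34 ± 0.21, adjusted p = 0.000167, was followed by no other called step. The difference of pnd2 and gd11 was -2.32 ± 0.21, adjusted p = 2.77e-08, and the pnd2 arrays read 2210, 2429 and 3026. The neural-high replicates 16 and 17 were also its highest gd11 arrays. Without them the fall to pnd2 was -2.07 (adjusted p = 2.79e-08).

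Peg3 and Usp29, the back-to-back pair whose shared stretch is printed above, both fell. Peg3 encodes a large zinc finger protein, and its arrays read 16018, 25392, 31491, 31606 and 32020 at gd11 and 9720, 11742 and 12777 at pnd2, with no overlap. The difference was -1.22 ± 0.18, adjusted p = 1.71e-05, and 3 of 3 kept Peg3 probe sets were called lower. Usp29, of the ubiquitin-specific protease family, was far dimmer, at 57.7, 92, 248, 161 and 164 at gd11 and 54.9, 47.1 and 10.9 at pnd2. Its pnd2 arrays all lay below its gd11 arrays, and the difference was -1.44 ± 0.39, adjusted p = 0.00481. The Usp29 size depended on the pseudocount (-2.03 with 1, -0.79 with 100), and without pnd2 replicate 3 its adjusted p was 0.05, at the threshold. No adjacent step was called for Usp29 or for the main Peg3 probe set. The other Peg3 probe sets, 1417356_at (-1.15 ± 0.31, adjusted p = 0.0172) and 1433924_at (-0.78 ± 0.21, adjusted p = 0.0166), were called lower at gd14 against gd12, as was the mean of all 3 (-0.76, adjusted p = 0.0258).

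**Figure D4:**
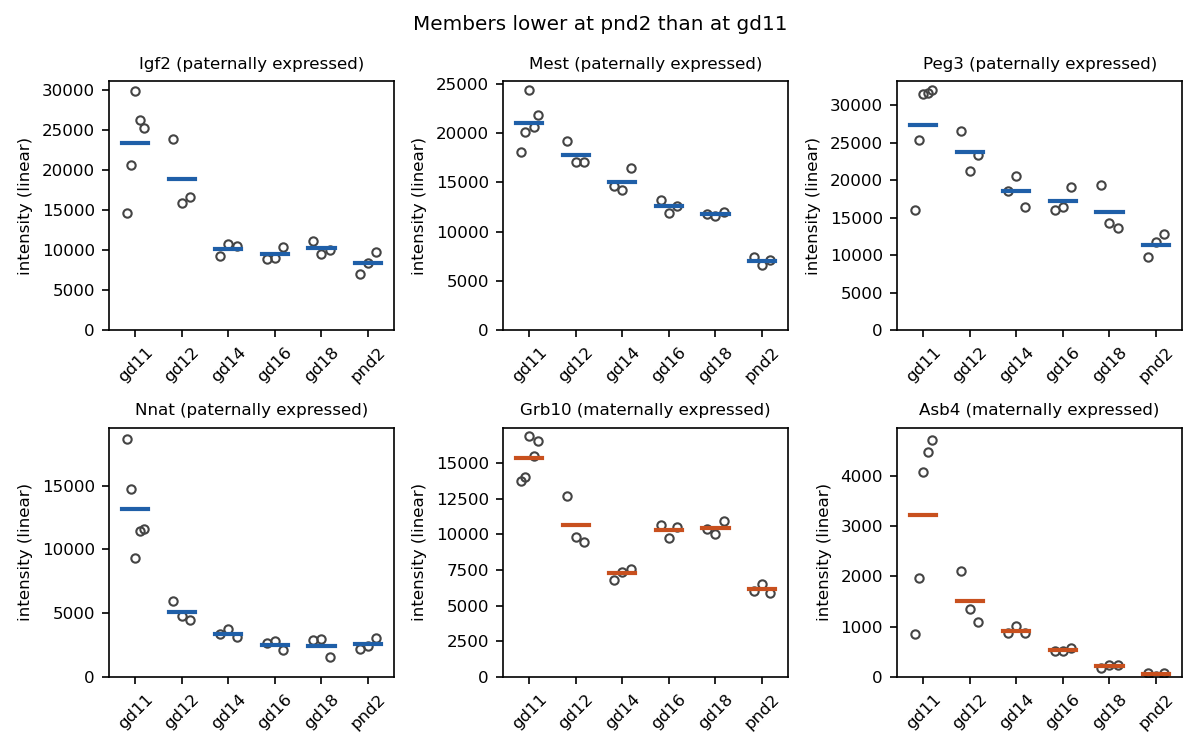
Linear intensity on every testis array (open circles) by stage, with the stage mean as a line (blue for paternally, orange for maternally expressed genes), for 6 imprinted genes lower at pnd2 than at gd11; axes start at 0. Igf2 drops between gd12 and gd14, Nnat between gd11 and gd12, Mest and Grb10 again between gd18 and pnd2, and Asb4 goes from 3224 at gd11 to 52.4 at pnd2.

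The paternally expressed long noncoding RNAs Kcnq1ot1 and Airn are each known to silence neighbouring genes on the paternal chromosome. Kcnq1ot1 was highest at gd12, at 1368, 1185 and 928, against 691, 510, 941, 773 and 776 at gd11 and 397, 509 and 426 at gd14. Only gd12 replicate 15 overlapped the gd11 range, and every gd14 array was below every gd12 array. The rise was 0.65 ± 0.21, adjusted p = 0.0326 and the fall to gd14 was -1.33 ± 0.23, adjusted p = 0.000577. The pnd2 arrays read 312, 286 and 449, a difference from gd11 of -1.03 ± 0.21, adjusted p = 0.000407. Of its 4 kept probe sets, 3 were called higher at gd12, 4 lower at gd14 and 4 lower at pnd2 against gd11. The rise of the gene's main probe set was lost without gd12 replicate 13 (0.52, adjusted p = 0.13), gd12 replicate 14 (0.62, adjusted p = 0.0938) or gd11 replicate 17 (0.52, adjusted p = 0.075), and without gd11 replicates 16 and 17 together it was 0.46 (adjusted p = 0.125). The fall to gd14 was lost without gd12 replicates 13 and 14 together (-1.03, adjusted p = 0.071).

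Airn, transcribed across the Igf2r gene on chromosome 17, read 397, 553, 886, 882 and 1119 at gd11 and 411, 415 and 450 at pnd2. The ranges overlap only through gd11 replicate 16. The difference was -0.73 ± 0.22, adjusted p = 0.0112, and -1.13 (adjusted p = 1.27e-06) without gd11 replicates 16 and 17. Its probe sets were not of 1 kind: of 5 kept, 2 were called lower, and 2 had positive differences that were not called (1436627_at 0.20, 1457337_at 0.23). With all its probe sets averaged the difference was -0.40 (adjusted p = 0.197).

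Peg10 and Sgce lie head to head on chromosome 6 and, by the main probe set of each, went opposite ways from gd11 to pnd2. Peg10, a gene derived from a retrotransposon, was dim throughout, at 109, 152, 125, 169 and 102 at gd11 and 37.4, 23.5 and 23.5 at pnd2. The ranges are separate, and the difference was -1.60 ± 0.30, adjusted p = 0.000245 (-2.19 with a pseudocount of 1, -0.85 with 100). The Peg10 probe set passed the filter on dim probe sets only through stages where it was bright. Its call and separate ranges are therefore not independent of the filter. Sgce, the gene of epsilon-sarcoglycan, read 1296, 1637, 1384, 1614 and 1625 at gd11, 2721, 2656 and 2757 at gd18 and 2254, 2304 and 2335 at pnd2. All gd18 and pnd2 arrays were above all gd11 arrays, with a difference at pnd2 of 0.60 ± 0.13, adjusted p = 0.000969. Its dimmer probe set 1443518_at did not show the rise (-0.08 ± 0.22, adjusted p = 0.8), and the mean of both gave 0.26 (adjusted p = 0.15). The same 2 probe sets pointed in different directions at gd12 against gd11 (-0.39 and 0.52), where the call of a fall (-0.39 ± 0.13, adjusted p = 0.0433) was lost without gd12 replicate 14 (adjusted p = 0.186) or 15 (adjusted p = 0.252), and without most other single arrays.

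Dlk1, which encodes a membrane protein of the Notch ligand family, was among the 6 that rose. Its arrays read 3696, 6698, 11006, 12311 and 10617 at gd11, 14661, 6288 and 6330 at gd12, 20555, 19377 and 17959 at gd18 and 16246, 16107 and 19194 at pnd2. The pnd2 arrays were all above the gd11 arrays, of which replicates 16 and 17 were the lowest. The difference was 1.07 ± 0.31, adjusted p = 0.00727, and 0.60 (adjusted p = 0.0294) without those 2 arrays. The gd12 mean of 9093 ± 4822 rests on replicate 13, which read 14661. The dimmer Dlk1 probe set 1442724_at was not called at pnd2 against gd11 (0.71 ± 0.32, adjusted p = 0.0769). Unlike the main probe set, it was called higher at gd16 against gd14 (1.19 ± 0.35, adjusted p = 0.049), from a gd14 mean of 41.5, close to background.

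Rasgrf1, a Ras-activating exchange factor, was near background before gd14 and appeared there, by the only kept probe set of its 3. It read 3.39, 10.7 and 5.77 at gd12, 94.9, 86.7 and 70 at gd14, 179, 161 and 136 at gd16, 85.7, 126 and 141 at gd18 and 38.2, 75.4 and 34.4 at pnd2. Every array from gd14 to pnd2 was above every gd11 and gd12 array, the highest of which was 19.4. The step to gd14 was 1.87 ± 0.29, adjusted p = 0.000168. This probe set passed the filter on dim probe sets only through arrays from gd14 on, so the call is not independent of the filter. The probe sets not kept showed no such step. Their means at gd12 and gd14 were 33.1 and 23 for 1424734_at, and 13.7 and 17.4 for 1422600_at. The later fall from gd18 to pnd2 (-0.99 ± 0.29, adjusted p = 0.0403) was lost without pnd2 replicate 1 (adjusted p = 0.133), pnd2 replicate 3 (0.147), gd18 replicate 5 (0.11) or gd18 replicate 6 (0.151), and with a pseudocount of 1 (0.194), quantile normalized arrays (0.105) or equal array medians (0.0884). At pnd2 it was still above gd11 (1.14 ± 0.26, adjusted p = 0.0011), by 2.37 with a pseudocount of 1 and 0.44 with 100.

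**Figure D5:**
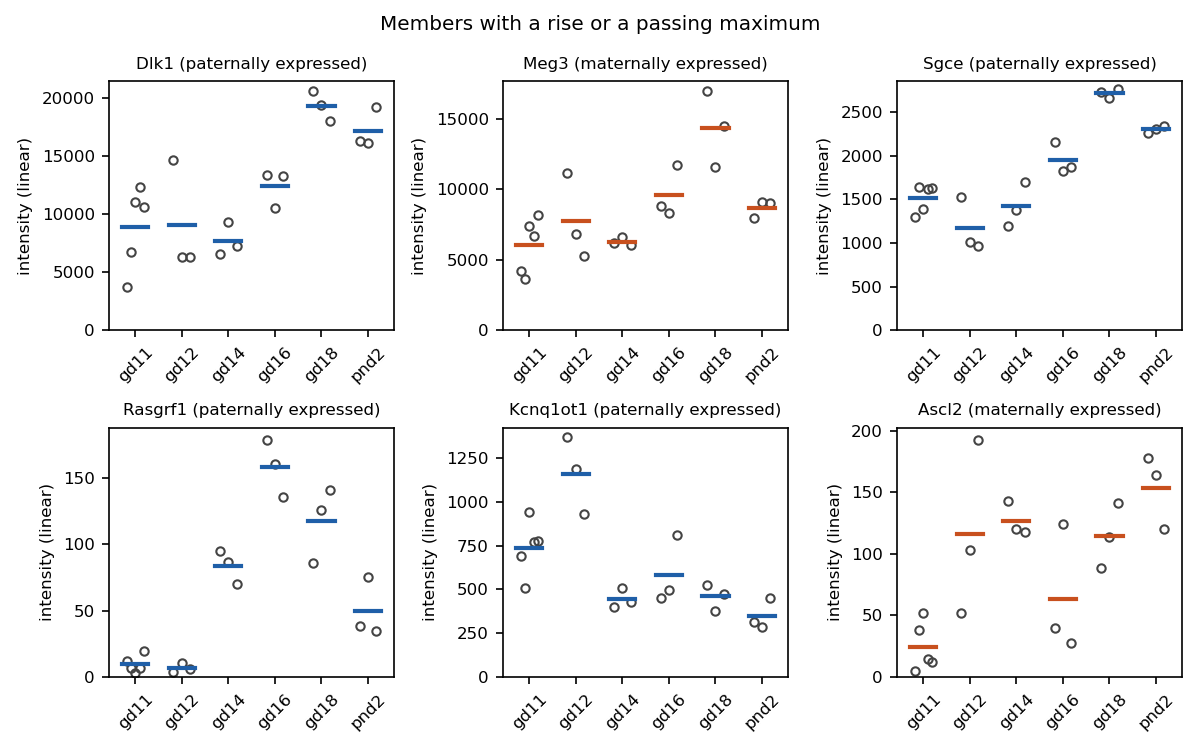
Linear intensity on every testis array (open circles) by stage, with the stage mean as a line (blue for paternally, orange for maternally expressed genes), for 6 imprinted genes with a rise or a passing maximum; axes start at 0. Kcnq1ot1 is highest at gd12, Rasgrf1 at gd16, Dlk1, Meg3 and Sgce at gd18 and Ascl2 at pnd2.

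Slc38a4, an amino acid transporter gene, was lower at pnd2 than at gd11. Its arrays read 1053, 1405, 2369, 2504 and 4443 at gd11, 1091, 1368 and 1478 at gd18 and 451, 623 and 524 at pnd2. The pnd2 range was below the gd11 and gd18 ranges. The difference from gd11 was -1.94 ± 0.32, adjusted p = 5.61e-05. The step from gd18 (-1.27 ± 0.36, adjusted p = 0.0357) was lost without any single pnd2 or gd18 array, with adjusted p from 0.0535 to 0.125. Impact, a regulator of the amino acid stress response, stepped down at gd14, from 1055, 789 and 881 at gd12 to 495, 525 and 668 (-0.67 ± 0.16, adjusted p = 0.0072), a call lost without gd12 replicates 13 and 14 together (-0.64, adjusted p = 0.109). It read 606, 528 and 596 at pnd2 against 853, 828, 1168, 1123 and 1207 at gd11, all lower (-0.80 ± 0.15, adjusted p = 0.000151). Only this probe set of 3 was called, and the mean of the 3 gave -0.37 (adjusted p = 0.148).

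The cluster of paternally expressed genes on central chromosome 7, known from the Prader-Willi region in people, did not move as 1 block. Ndn, a MAGE family gene, read 9664, 7983, 7330, 7484 and 6940 at gd11, 7427, 5219 and 5196 at gd12, 7688, 7376 and 6489 at gd16, 10163, 10367 and 9589 at gd18 and 9452, 9568 and 10668 at pnd2. It fell at gd12 (-0.42 ± 0.12, adjusted p = 0.0173), rose at gd18 (0.48 ± 0.13, adjusted p = 0.0414) and was higher at pnd2 than at gd11 (0.34 ± 0.12, adjusted p = 0.0256), with overlap of pnd2 and gd11 through gd11 replicate 16. These calls were close to the threshold. The first was lost without gd12 replicate 14 (adjusted p = 0.102) or 15 (0.121), or without gd11 replicates 16 and 17 together (0.0723). The second was lost without each single gd16 or gd18 array, and the third without pnd2 replicate 3 (0.113) or gd11 replicate 20 (0.059). Peg12, of the FRAT family, fell from 302, 263, 152, 228 and 141 at gd11 to 128, 109 and 103 at pnd2 (-0.77 ± 0.23, adjusted p = 0.00803), and without gd11 replicates 16 and 17 the difference was -0.51 (adjusted p = 0.0695). Magel2 and Mkrn3 were low at all stages, with array values of 109 to 239 and 78.4 to 353, and passed neither the F-test nor any pairwise comparison. The probe sets that list Snurf and Snrpn together are named for neither gene. One of them read 4410, 3364, 1934, 2554 and 2016 at gd11 and 1180, 1276 and 1496 at pnd2, with no overlap and with replicates 16 and 17 highest.

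Plagl1, a zinc finger transcription factor gene, was among the brightest members, at 24048 ± 3711 at gd11, 17727 ± 1281 at gd14 and 25805 ± 1926 at gd18. It passed the F-test (adjusted p = 0.0106) with stage means at most 1.46-fold apart, and was not called between pnd2 and gd11 (-0.10 ± 0.12, adjusted p = 0.51). Its 2 dimmer probe sets were called higher at pnd2: 1438588_at went from 67.3 ± 16.5 to 134 ± 12.3 (0.82 ± 0.24, adjusted p = 0.0083), and 1450533_a_at from 724 ± 161 to 1084 ± 168 (0.58 ± 0.23, adjusted p = 0.0414).

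Among the maternally expressed genes, Asb4 had the largest change of all members. It encodes a substrate-binding subunit of a ubiquitin ligase. The arrays read 861, 1973, 4089, 4479 and 4720 at gd11, 2109, 1342 and 1099 at gd12, 864, 1021 and 866 at gd14, 520, 518 and 576 at gd16, 181, 233 and 244 at gd18 and 78.8, 10.3 and 68.2 at pnd2. Each stage mean was below the one before, and from gd14 on no stage overlapped the next. The difference of pnd2 and gd11 was -5.36 ± 0.44, adjusted p = 8.09e-09, and both Asb4 probe sets were called. It ranged from -6.10 to -4.25 over the alternative settings, since the pnd2 mean of 52.4 is close to background. The only adjacent step called was gd18 to pnd2 (-1.84 ± 0.49, adjusted p = 0.0265), and it was lost without pnd2 replicate 2, which read 10.3 (-1.33, adjusted p = 0.139), and without gd18 replicate 5 (adjusted p = 0.073) or 6 (adjusted p = 0.0932), and with a pseudocount of 100 (-1.09, adjusted p = 0.115). Without gd11 replicates 16 and 17 the first step was called too (gd12 against gd11 -1.58, adjusted p = 0.000762).

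Grb10, an adaptor that dampens signalling of the insulin and IGF receptors, moved at 4 of the 5 steps. Intensities were 13731, 13993, 16898, 15484 and 16536 at gd11, 12692, 9800 and 9473 at gd12, 6812, 7363 and 7592 at gd14, 10668, 9747 and 10480 at gd16, 10365, 9996 and 10906 at gd18 and 6050, 6504 and 5889 at pnd2. Each of the ranges at gd11, gd12 and gd14 lay below the one before, gd16 was back above gd14, and pnd2 was below all other stages. Grb10 fell to gd12 (-0.53 ± 0.09, adjusted p = 0.0004) and to gd14 (-0.54 ± 0.10, adjusted p = 0.00108). It then rose to gd16 (0.50 ± 0.10, adjusted p = 0.00441) and fell from gd18 to pnd2 (-0.76 ± 0.10, adjusted p = 0.000277). The whole change was -1.31 ± 0.09, adjusted p = 8.78e-10, with 3 of 3 kept probe sets called lower. With the 3 probe sets averaged, the step to gd14 (-0.23, adjusted p = 0.572), that to gd16 (0.47, adjusted p = 0.241) and the last (-0.66, adjusted p = 0.102) were not called, and the step at gd14 was also lost without gd12 replicates 13 and 14 (-0.39, adjusted p = 0.0644).

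Igf2r, the receptor that takes IGF2 up for degradation, was lowest at pnd2. It read 1974, 2425, 3550, 2578 and 4598 at gd11, 3286, 3505 and 3486 at gd18 and 2073, 1811 and 1961 at pnd2. The pnd2 range was below the gd18 range and overlapped gd11 through replicate 16. The differences were -0.81 ± 0.23, adjusted p = 0.0384 from gd18 and -0.57 ± 0.21, adjusted p = 0.0302 from gd11. Both calls were near the threshold: the first was lost without any single gd18 or pnd2 array (adjusted p from 0.0736 to 0.119), and the second without any single pnd2 array (0.0526 to 0.0992) or gd11 replicate 18 (0.0668) or 20 (0.0731). Without gd11 replicates 16 and 17 together the second was -0.83 (adjusted p = 0.000995).

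Of the maternally expressed genes of the distal chromosome 7 cluster near Kcnq1ot1, only Ascl2, a transcription factor known from the trophoblast, rose. It was close to background at gd11, at 4.81, 38.1, 52.1, 14.2 and 12.2, and read 52.2, 103 and 193 at gd12 and 178, 164 and 120 at pnd2. All pnd2 arrays were above all gd11 arrays, and gd12 replicate 13 read just above the highest gd11 array. The differences were 1.54 ± 0.38, adjusted p = 0.00766 at gd12 and 2.01 ± 0.38, adjusted p = 0.000254 at pnd2, with the latter 3.01 for a pseudocount of 1 and 1.04 for 100. The gd12 call was lost without gd12 replicate 15 (1.15, adjusted p = 0.079). The Ascl2 probe set passed the filter on dim probe sets only through stages where it was bright, so neither call is independent of the filter.

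Phlda2, a gene known to restrain growth of the placenta, was variable within stages and low at pnd2. It read 107, 95.8, 104, 470 and 122 at gd11, 61.5, 492 and 97.9 at gd12, 167, 152 and 378 at gd18 and 22.7, 31.4 and 69.5 at pnd2. All pnd2 arrays were below all gd11 and gd18 arrays, while gd11 replicate 19 and gd12 replicate 14 stood far above the arrays beside them. The differences were -1.96 ± 0.58, adjusted p = 0.0425 from gd18 and -1.48 ± 0.52, adjusted p = 0.0232 from gd11. The first was lost without any single gd18 or pnd2 array (adjusted p from 0.055 to 0.186), and the second without gd11 replicate 19 (-1.09, adjusted p = 0.058), pnd2 replicate 1 (adjusted p = 0.0999) or pnd2 replicate 2 (0.0737), and with a pseudocount of 100 (-0.86, adjusted p = 0.0668). Nap1l4, a histone chaperone gene, fell slightly, from 5205, 5124, 5043, 4338 and 4310 at gd11 to 3409, 3790 and 3863 at pnd2, with no overlap (-0.38 ± 0.08, adjusted p = 0.000413). Its step at gd16 (-0.27 ± 0.08, adjusted p = 0.0469) was lost without any single gd14 array, gd16 replicate 7 or gd16 replicate 9, and without several arrays of other stages. Slc22a18, a transporter gene, passed the F-test (adjusted p = 0.0386) with a maximum of 101, 112 and 125 at gd16, between 38.2, 35.6 and 34.1 at gd12 and 19.2, 22.9 and 49.8 at pnd2, but no step of it was called.

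Meg3, a long noncoding RNA that shares its control region with Dlk1 on chromosome 12, gave different answers by probe set. Its main probe set read 4180, 3662, 7358, 6708 and 8159 at gd11, 8833, 8335 and 11692 at gd16, 16960, 11551 and 14458 at gd18 and 7974, 9078 and 8992 at pnd2. The pnd2 range overlapped that of gd11 through replicate 20, and replicates 16 and 17 were the lowest at gd11. The call at pnd2 (0.60 ± 0.24, adjusted p = 0.0473) was lost without those 2 arrays (0.23, adjusted p = 0.347) and without any single pnd2 array (adjusted p from 0.0715 to 0.122), gd11 replicate 16 (0.0976) or gd11 replicate 17 (0.121). With all its kept probe sets averaged it was 0.04 (adjusted p = 0.86). Of 11 kept Meg3 probe sets, 4 were called higher and 3 lower in this comparison, with log2 differences from -1.06 to 1.43. The 2 ends were 1429256_at, from 183 ± 85.8 to 71.5 ± 21.1, and 1436713_s_at, from 3085 ± 1784 to 7351 ± 336. The others called lower were 1428764_at and 1429257_at, and the others called higher, beside the main 1452183_a_at, were 1426758_s_at and 1452905_at.

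Gnas, whose locus makes the stimulatory G protein alpha subunit and several other transcripts of either parental origin, was bright and nearly level. It read 22587, 24820, 29530, 27073 and 25175 at gd11 and 19496, 20417 and 23455 at pnd2. The ranges overlap through pnd2 replicate 3, and the difference was -0.29 ± 0.09, adjusted p = 0.0168. It was lost without pnd2 replicate 1 (adjusted p = 0.0946) or 2 (0.0633), was -0.08 with quantile normalized arrays (adjusted p = 0.479) and -0.23 with equal array medians (adjusted p = 0.104), and turned to 0.35 with the mean of 4 probe sets (adjusted p = 0.263). Of these, 1453413_at was called higher at pnd2 (1.12 ± 0.42, adjusted p = 0.0366). Zim1 and the main Ppp1r9a probe set passed neither the F-test nor any comparison. Zim1 read 189 ± 84.4 at gd11 and 93.2 ± 14.2 at pnd2 (-0.76 ± 0.31, adjusted p = 0.0516), and the main Ppp1r9a probe set 1571 ± 438 and 1573 ± 222 (0.04 ± 0.19, adjusted p = 0.878). Another Ppp1r9a probe set, 1440285_at, was called lower at gd14 against gd12 (-0.43 ± 0.14, adjusted p = 0.0478).

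The adjacent steps were taken in turn. At gd12 against gd11, 2 rose (Ascl2, Kcnq1ot1) and 5 fell (Grb10, Mest, Ndn, Nnat, Sgce), 24.1% of the 29 against 21.4% of all genes (11.2% higher, 10.2% lower). At gd14 against gd12, Rasgrf1 rose and Grb10, Igf2, Impact and Kcnq1ot1 fell, 17.2% against 18.7% (11.4% higher, 7.34% lower). At gd16 against gd14, Grb10 rose and Nap1l4 fell, 6.9% against 10.4% of all genes (5.39% higher, 4.99% lower). At gd18 against gd16 Ndn alone was called, 3.45% against 4.88% of all genes (1.7% higher, 3.18% lower). These 4 shares of called genes are near those of all genes. At pnd2 against gd18, 7 fell and none rose (Asb4, Grb10, Igf2r, Mest, Phlda2, Rasgrf1, Slc38a4), 24.1% against 7.8% of all genes, of which 5.26% fell and 2.54% rose. The 7 rest on unequal ground, since Asb4, Igf2r, Phlda2, Rasgrf1 and Slc38a4 were each lost without single arrays as given above, and Grb10 and Mest were not. Over the fits without a single array the count at this step ran from 2 to 8, and all 7 remained among the 9 called without gd11 replicates 16 and 17. Both scalings left 5, all lower. Other markers moved at this step too: 3 of 10 erythroid genes fell (median log2 difference -0.90), as did 3 of 8 endothelial genes (median -0.74, all 8 negative), and 1 of 12 skeletal and cardiac muscle genes (median -0.85, 10 negative). Of 10 Sertoli cell genes 2 rose and 1 fell (median 0.06). None of 13 neural genes was called (median -0.95). Among 6 fetal Leydig cell, 8 germ cell and 9 mesonephros and duct genes 1 each fell. The part of these marker cell types in the imprinted genes' changes was not tested.

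The order of the steps by number of calls depended on the setting. The 7 calls at gd12 ran from 3 (without gd12 replicate 14 or 15) to 11 (without gd11 replicate 16), and were 2 with only the stages compared, where 8 were called at gd14 and 12 at gd16. By array ranges the first step had the fewest members, with no overlap for 1 higher and 3 lower of the 29, against 20.7% of all genes. The counts were 2 higher and 12 lower at gd14 (37.5% of all genes), 9 higher and 5 lower at gd16 (39.1%), 7 higher and 3 lower at gd18 (28.7%), and 13 lower with none higher at pnd2 against gd18 (33.5%). The first step sets 5 arrays against 3 and the later steps 3 against 3. Separate ranges are therefore harder to reach at the first step, and its count cannot be ranked directly against the others. Adjacent comparisons share the arrays of the stage between them.

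Of 34 measured genes on a second list of imprinted genes that are no members, 9 rose and 8 fell from gd11 to pnd2 (median 0.08), so 50% were called against 48.6% of all genes. Cdkn1c, a cell cycle inhibitor of the Kcnq1ot1 cluster expressed from the maternal copy, fell from 14513 ± 1936 at gd11 to 2704 ± 189 at pnd2 (-2.41 ± 0.21, adjusted p = 1.7e-08). Dcn, the matrix proteoglycan decorin, is on the interstitial and smooth muscle marker list too. It rose from 1655 ± 732 to 18945 ± 1104 (3.67 ± 0.36, adjusted p = 9.67e-08), and Qpct, a glutaminyl cyclase gene, from 33.1 ± 16 to 690 ± 42.5 (3.74 ± 0.30, adjusted p = 5.84e-09). At gd14 against gd12 the largest change on this list was that of Sfmbt2, a Polycomb group gene, from 213 ± 34.9 to 700 ± 86 (1.62 ± 0.20, adjusted p = 1.84e-05).

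Of 21 measured genes that set, keep or erase imprints, 17 passed the F-test, and 2 rose and 9 fell from gd11 to pnd2 (median -0.29). These shares are 81% against 68.3% of all genes, and 52.4% against 48.6%, the latter near the background. Dnmt3l, the partner of the DNA methyltransferases that lay down imprints in germ cells, went from 7.94 ± 3.27 at gd12 to 1221 ± 221 at gd14, reached 2986 ± 324 at gd16 and was near background at pnd2, at 29.1 ± 19.1. It rose at gd14 (5.35 ± 0.33, adjusted p = 7.88e-09) and again at gd16, and fell at gd18 and at pnd2 (-4.55 ± 0.33, adjusted p = 4.72e-07). Kdm1b, a histone H3 lysine demethylase needed for imprints in oocytes, rose at gd16 from 750 ± 36.9 to 3793 ± 739 (2.29 ± 0.24, adjusted p = 3.05e-05). Dppa3, which shields imprints in the early embryo and is on the germ cell marker list too, peaked at gd14, at 14011 ± 492, between 406 ± 122 at gd11 and 36.6 ± 13.3 at pnd2. The 8 germ cell markers summed to 45676 to 54803 at gd14, the highest of the 6 stages, and to 8253 to 11860 at pnd2, and their part in these changes was not tested.

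Among single genes of this list, Zfp57, the imprint-keeping protein named above, went from 225 ± 29.2 at gd11 to 95 ± 15.7 at pnd2 (-1.08 ± 0.17, adjusted p = 4.15e-05), its corepressor Trim28 from 12929 ± 673 to 8156 ± 312 (-0.66 ± 0.07, adjusted p = 1.21e-07), and Zfp445 from 4729 ± 113 to 3278 ± 120 (-0.53 ± 0.07, adjusted p = 2.43e-06). Dnmt1, the maintenance methyltransferase, read 3163 ± 333 and 3294 ± 369 and was not called between these stages.

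Of 14 measured IGF pathway partners of Igf2, 3 rose and 6 fell from gd11 to pnd2 (64.3% called against 48.6% of all genes, median -0.35). The binding protein genes Igfbp6 and Igfbp7 rose, Igfbp6 from 147 ± 35.2 to 2826 ± 271 (4.10 ± 0.17, adjusted p = 7.49e-13) and Igfbp7 from 868 ± 577 to 6898 ± 1671 (3.20 ± 0.37, adjusted p = 8.8e-07). Igf2bp1, whose protein binds Igf2 mRNA, fell from 2898 ± 1151 to 524 ± 117 (-2.31 ± 0.45, adjusted p = 0.000342). At gd12 against gd11, 5 of the 14 (35.7%) were called, 4 of them lower, against 21.4% of all genes, 10.2% lower.

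The pnd2 testis was last set beside the whole-newborn reference, which is 1 array, so these values carry no test. Of the 29 imprinted genes, 13 were past 2-fold, 4 higher and 9 lower in testis, against 34.9% of all genes, 17.5% higher and 17.3% lower. By their main probe sets, Peg3 (11413 ± 1555 in pnd2 testis, 3936 in the reference), Igf2r (1949 ± 132 and 751), Airn (426 ± 21.6 and 175) and Ppp1r9a (1573 ± 222 and 726) were higher in testis. Other kept probe sets of these genes differed in direction. Examples lower in testis were Igf2r 1424111_at (400 and 724), Airn 1456139_at (127 and 530) and Peg3 1417356_at (2992 and 3356). Examples higher in testis were Peg3 1433924_at (8335 and 7028), Airn 1436627_at (524 and 132) and Ppp1r9a 1440285_at (1555 and 446). Slc38a4 was lower in testis at 532 ± 86.2 against 3502, Igf2 at 8420 ± 1350 against 24842 and Nnat at 2555 ± 422 against 7988. The dimmer Igf2 probe set 1415931_at was near level, at 257 against 270. The other Slc38a4 probe set, 1428111_at, was lower too, at 403 against 2420. Usp29, Kcnq1ot1, Asb4, Phlda2, Rasgrf1 and Slc22a18 were the other 6 of the 9 lower, and of these Usp29, Asb4, Phlda2, Rasgrf1 and Slc22a18 were close to background in testis. Kcnq1ot1 probe set 1442029_at went the other way, at 85.6 in testis and 54.6 in the reference. Its probe sets 1457781_at (267 and 688) and 1459443_at (19.9 and 95.2) were lower in testis. Ndn read 9896 ± 671 in testis and 10453 in the reference, inside the range of the testis arrays. With a pseudocount of 100, 8 of the 29 were past 2-fold.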

How the data were processed

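Whole testes at 6 stages (20 arrays) and a whole-newborn reference (1 array) were measured. The deposited intensity values are linear and were made with GCOS, per the submitters' processing notes. The trimmed mean was 500 on every array, so depth does not apply and the number of arrays limits precision. Before log2 a pseudocount of 22.4, the 20th percentile over the testis arrays, was added. A probe set was kept if it passed the 40th percentile of 3 or more testis arrays. Rasgrf1, Ascl2 and Peg10 passed only through stages where they were bright, so their calls against dim stages are not independent of this filter. A gene stood for its kept probe set of highest mean log2, among probe sets listed under 1 gene. Of 45101 probe sets, 34945 list 1 gene, 932 several and 9160 none, and 64 are controls; 34741 were matched through the Entrez identifier. limma 3.58.1 in R 4.3.3 (lmFit, eBayes with trend) fitted the 6 stage means on all 20 arrays, with 5 adjacent contrasts, pnd2 against gd11 and an F-test, adjusted by Benjamini-Hochberg over 14338 genes. Python 3.11.15 with pandas 2.3.3, numpy 2.4.6 and matplotlib 3.10.9 made the summaries and figures. The fit was tested on simulated data.

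The members and lists were chosen with earlier results of these data known. Per-array values are given for members called by the F-test with 2-fold stage means or called at pnd2 against gd11; of other lists, at most 3 called genes with the largest change per comparison are named, and any gene called by the F-test on the list of genes that set and keep imprints. P-values measure the spread between these samples. The labels give no batch.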

Additional observations from a re-analysis of the deposited data

Results flagged for a closer look

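Phlda2 read 470 on gd11 replicate 19, while the other gd11 arrays read 107, 95.8, 104 and 122. The gap to the nearest array was a larger part of the group's range than Dixon's 95% critical value of 0.71 for 5 arrays allows. Some flags of this kind arise by chance when 29 genes are examined, and the cause was not tested.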

How the results depend on the processing

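The count of imprinted genes called at pnd2 against gd11 ran from 19 to 23 and that of the F-test from 21 to 26 over the fits without a single array. The same ranges were 3 to 11 for gd12 against gd11, 5 to 9 for gd14 against gd12, 1 to 5 for gd16 against gd14, 0 to 2 for gd18 against gd16, 2 to 8 for pnd2 against gd18 and 13 to 13 for the reference. With only the 2 stages compared, the counts were 2 at gd12 against gd11, 8 at gd14, 12 at gd16 and 6 at gd18. Array weights gave 8, 11 and 3 at gd14, gd16 and gd18. Without gd11 replicates 16 and 17 these were 11, 9 and 4. Without gd12 replicates 13 and 14 they were 1 at gd14 and 2 at gd18. With every probe set fitted by itself, 8 were called at gd14 and 4 at gd16. At gd16 a pseudocount of 1 gave 1, a pseudocount of 100 gave 4 and no filter gave 1; at gd18 no filter gave 0. The mean of a gene's probe sets left 3 at pnd2 against gd18, and for the reference a pseudocount of 100 left 8. With the mean of the probe sets, Gnas at pnd2 against gd11 turned to 0.35 (adjusted p = 0.263) and Sgce at gd12 against gd11 to 0.07 (adjusted p = 0.792). The cause of these changes was not tested. Setting array medians equal moved the median of all genes from -0.006 to -0.121 at gd12 against gd11 (1054 higher and 2297 lower, from 1609 and 1458) and from -0.064 to 0.106 at pnd2 against gd18 (963 and 384, from 364 and 754). Signal near background limits Rasgrf1, Ascl2, Asb4, Usp29, Peg10, Slc22a18 and Phlda2. No paired analysis was possible because replicate numbers run through the whole series and no stages share one.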
